A study of Mus musculus with 30 samples.

Results

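Suz12 occupancy upon depletion of EPOP (also C17orf96) was described from peak lists of chromatin immunoprecipitation and sequencing (ChIP-seq) in E14Tg2A cells, a mouse embryonic stem cell line kept without feeders in serum and LIF. The members are all peaks of 3 Suz12 lists, 23297 of the 240359 peaks in the 20 lists of the series. The EPOP knock-down list came from cells titled as Suz12 ChIP upon C17orf96 knock-down and held 8491 peaks. Its matched control, named for a control hairpin in the file header, held 7972 peaks, and the second control, named for a control small interfering RNA (siRNA), held 6834. All 3 used the same lot of 1 Suz12 antibody. Per the labels' protocols, the hairpin against EPOP was delivered by lentivirus with puromycin selection, and siRNA was transfected in 2 rounds. The controls are titled as replicates of Suz12 ChIP, with no word on separate cultures. The sources used here do not say whether the hairpin cells were a pool or a clone, or what the control hairpin targeted. The labelled cell type was not checked against marker genes, since no RNA values and no gene annotation of this build were used here.

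Suz12 is a core subunit of Polycomb repressive complex 2 (PRC2), which methylates histone H3 on lysine 27 (the H3K27me3 mark) and helps keep developmental genes silent in embryonic stem cells. EPOP is an accessory protein of one form of PRC2 and links it to Elongin B (EloB), while Jarid2 is an accessory subunit of the other form. Many PRC2 targets in these cells are bivalent promoters, which also carry H3K4me3, a mark of promoters in general.

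With 1 knock-down list there is no replicate of the knock-down, and no test of the condition was made: an exact permutation of 1 list against 2 cannot give a p under 0.333. The main knock-down values are therefore given beside the same values between the 2 control lists. Control method and library cannot be told apart, since each method had 1 control list. A peak list says where signal passed the authors' threshold, not how much Suz12 was bound, and the depth of each list is unknown. Shares carry Wilson 95% intervals, which cover the counting of peaks only.

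The 3 lists differed in shape. Peaks had a median width of 1452 bp upon EPOP knock-down, 1377 bp in the hairpin control and 2020.5 bp in the siRNA control. The covered length was 15.9 Mb upon EPOP knock-down, 13.9 Mb in the hairpin control and 18.4 Mb in the siRNA control. The knock-down list thus lay between the controls in width and length, while its peak number was above both, by 519 over the hairpin control. The deposited peak score reached a ceiling near 3100. At or above 3100 lay 10.1% of the knock-down peaks, 6.12% of the hairpin control peaks and 24.6% of the siRNA control peaks. Over the 19 autosomes and X the ratio of peak number, EPOP knock-down over hairpin control, ran from 1.01 to 1.16, and the ratio of siRNA control over hairpin control from 0.786 to 0.974.

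Suz12 stayed called at nearly every strong site upon EPOP knock-down, sites that still held an EPOP peak included. Of the 3986 hairpin control peaks at or above their median score of 239.97, 3985 overlapped a knock-down peak, and the exception was the start of the mitochondrial sequence. On the nuclear chromosomes 0 of 3985 were missing, with an upper Wilson 95% bound of 0.0963%. In the siRNA control 24 of the same 3986 peaks were missing (0.602%, Wilson 95% interval 0.405 to 0.894). Below the median score 75.8% (74.5 to 77.1) had a knock-down peak and 63.6% (62.1 to 65.1) an siRNA control peak. Over all 7972 hairpin control peaks, 965 had no knock-down peak (12.1%), against 1473 with no siRNA control peak (18.5%). By this share the knock-down list was closer to the hairpin control than the other control was, but it was also longer, at 8491 against 6834 peaks. The other direction gave the reverse order. Of the knock-down peaks 79.4% lay on a hairpin control peak, and of the siRNA control peaks 83.2%.

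The share found was graded by score. In decile 1 of the hairpin control by score, the lowest, 46.4% were found upon EPOP knock-down and 32.6% in the siRNA control. In decile 3 it was 81.2% upon EPOP knock-down and 65.1% in the siRNA control. In decile 5 it was 98.5% upon EPOP knock-down and 91.8% in the siRNA control.

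**Figure D1:**
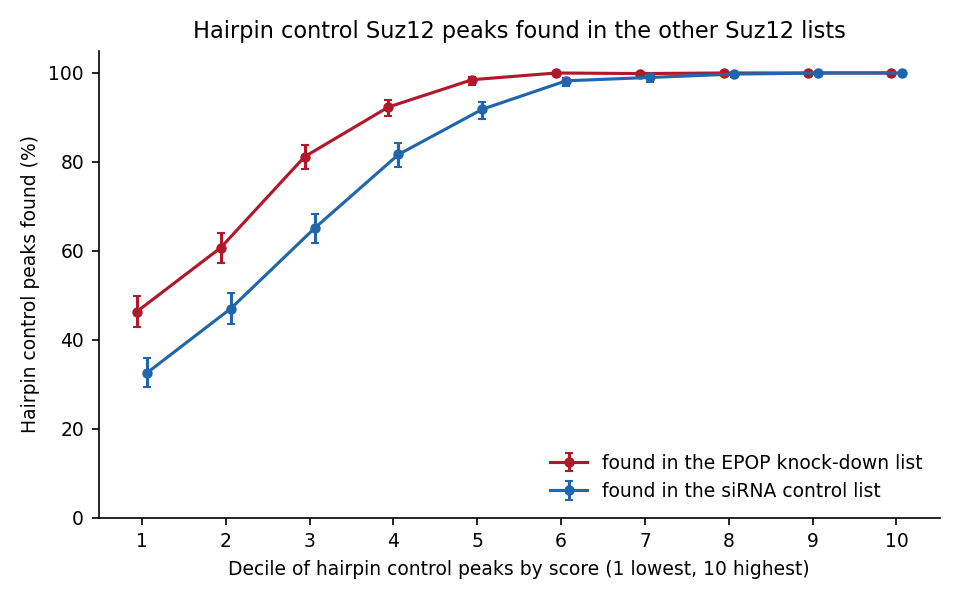
Share of hairpin control Suz12 peaks (y axis, percent) found in the EPOP knock-down list (red) and in the siRNA control list (blue), by decile of hairpin control score (x axis, lowest to highest). Bars are Wilson 95% intervals; the EPOP knock-down points lie above the siRNA control points in the 5 lowest deciles, at 46.4% against 32.6% in the lowest, and both lists are near 100% in the upper ones.

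Peaks bound by EPOP without knock-down were set apart first, since EPOP is what was depleted. Of 5645 hairpin control Suz12 peaks that overlapped EPOP in both EPOP control lists (called EPOP-bound), 98.0% (97.6 to 98.3) were found upon EPOP knock-down and 97.2% (96.8 to 97.6) in the siRNA control. Of these peaks 5110 had no EPOP peak in either EPOP list upon knock-down, and of them 97.7% (97.3 to 98.1) still held Suz12 upon EPOP knock-down, against 97.0% (96.5 to 97.4) in the siRNA control. The other 535, with a median score of 2944, still had an EPOP peak upon knock-down, and 535 of them were found upon EPOP knock-down and 534 in the siRNA control. One of the 2 EPOP knock-down lists carries conflicting labels, since its description names IgG and its title and antibody name EPOP.

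EPOP-free Suz12 peaks, which overlapped neither EPOP control list, were found less often. Of 905 such peaks 41.0% (37.8 to 44.2) were found upon EPOP knock-down and 19.0% (16.6 to 21.7) in the siRNA control. These peaks were weak, with a median score of 65.1 and width of 700 bp, against 479 and 1713 bp for EPOP-bound peaks. The classes thus differed by 57.0 percentage points upon EPOP knock-down. Averaged with equal weight over the quartiles of hairpin control score that held EPOP-free peaks, they differed by 26.8 points. Most EPOP-free peaks, 710, lay in quartile 1, the lowest, where 84.3% of EPOP-bound and 32.1% of EPOP-free peaks were found upon EPOP knock-down. Quartile 3 held 25 EPOP-free peaks, and all peaks of both classes there were found upon EPOP knock-down. The gap was seen between the controls too, so it is not particular to the knock-down. Below the median hairpin control score, 93.5% of 1780 EPOP-bound and 39.3% of 880 EPOP-free peaks were found upon EPOP knock-down, and 91.4% and 18.9% in the siRNA control. Among the 25 EPOP-free peaks at or above that score, 25 were found upon EPOP knock-down and 6 in the siRNA control.

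Suz12 peaks shared with EloB, or with Jarid2 in both conditions, were nearly all found. Of 782 hairpin control Suz12 peaks that carried EloB in both EloB control lists and in neither EloB list upon EPOP knock-down, all 782 were found upon EPOP knock-down and all 782 in the siRNA control (lower Wilson bound 99.5%). Suz12 peaks with Jarid2 in both conditions were found in 99.8% (2429 of 2433) upon EPOP knock-down and in 99.4% in the siRNA control. Those with Jarid2 in neither condition, with a median score of 102 against 1487, were found in 77.4% (76.1 to 78.7) of 4223 upon EPOP knock-down and in 65.9% (64.4 to 67.3) in the siRNA control. The 55 peaks with Jarid2 only without knock-down were found in 92.7% (82.7 to 97.1) upon EPOP knock-down and in 87.3% (76.0 to 93.7) in the siRNA control.

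Another class held a Jarid2 peak upon EPOP knock-down and not without it. Its 1261 hairpin control Suz12 peaks were found in 99.7% upon EPOP knock-down and in 99.2% in the siRNA control. Jarid2 had no replicate list in either condition, so the spread of its calls is unknown. It was called at 3694 hairpin control Suz12 peaks upon EPOP knock-down and at 2488 without. Read from the Jarid2 side, 1225 Jarid2 peaks were new upon EPOP knock-down. Of them 1176 lay on a Suz12 peak of the knock-down list, 1162 on one of the hairpin control and 1166 on one of the siRNA control, so most of them lay on Suz12 peaks that were also called without knock-down. New Jarid2 peaks with Suz12 upon EPOP knock-down and in neither control numbered 6 (0.490%).

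Suz12 peaks were then split by histone marks. Suz12 peaks with H3K4me3 and H3K27me3 were found in 97.0% (96.4 to 97.4) of 5152 upon EPOP knock-down and in 96.7% (96.2 to 97.2) in the siRNA control. Those with H3K4me3 and no H3K27me3 were found in 77.2% (75.3 to 79.0) of 2020 upon EPOP knock-down and in 55.1% (52.9 to 57.3) in the siRNA control. H3K27me3 was called at 5509 hairpin control Suz12 peaks upon EPOP knock-down and at 5499 without. Where the mark was called in both conditions, with a median score of 569, 97.7% of 4961 peaks were found upon EPOP knock-down and 98.6% in the siRNA control. Where it was called only without knock-down, with a median score of 118, 84.6% of 538 were found upon EPOP knock-down and 78.1% in the siRNA control. Where it was called only upon EPOP knock-down, with a median score of 149, 90.5% of 548 were found upon EPOP knock-down and 89.8% in the siRNA control. Where it was called in neither, with a median score of 77.3, 62.8% of 1925 were found upon EPOP knock-down and 36.1% in the siRNA control. The H3K27me3 list upon EPOP knock-down is named for another hairpin number than the Suz12 list in its file header, and the sources do not say whether both used 1 hairpin.

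**Figure D2:**
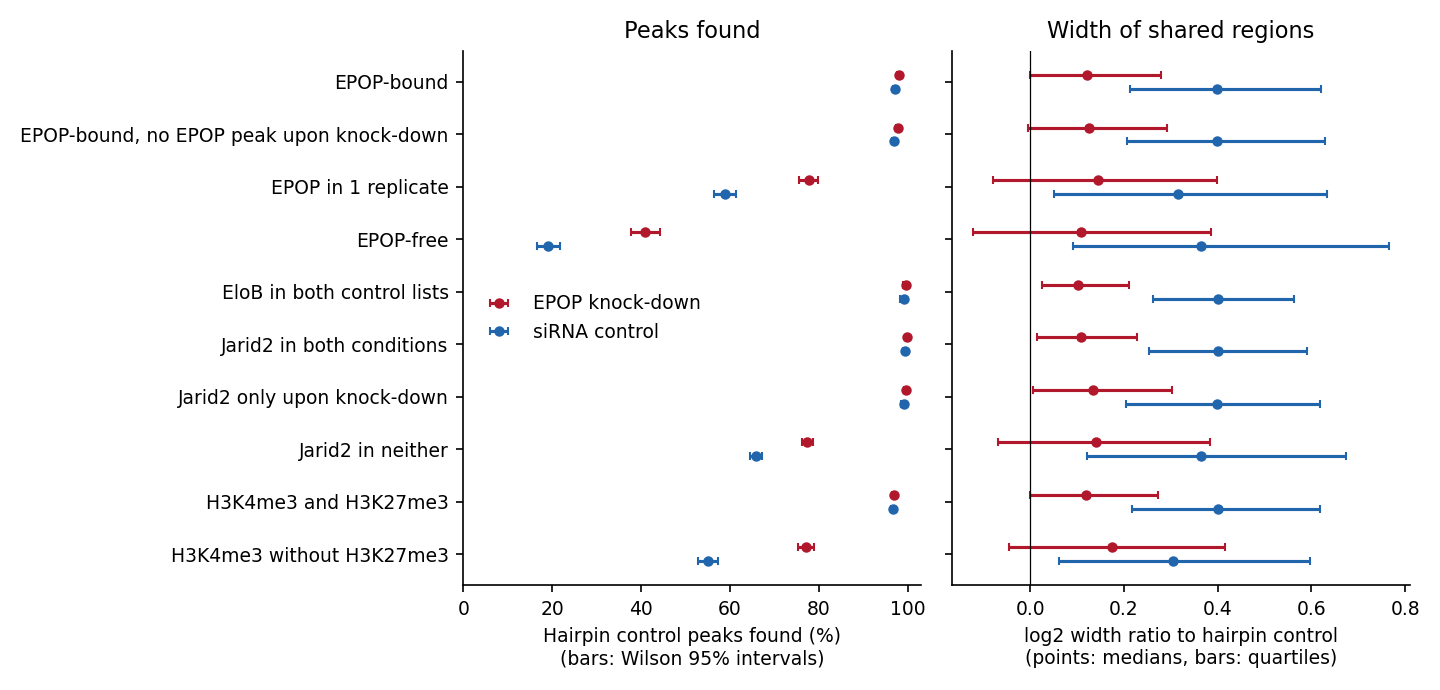
Left, share of hairpin control Suz12 peaks (x axis, percent, with Wilson 95% intervals) found upon EPOP knock-down (red) and in the siRNA control (blue), by what else the peak carried. Right, log2 ratio of summed Suz12 peak width to the hairpin control (x axis) for the same lists and classes, as medians with quartiles. The plotted EPOP-bound and EloB classes, both classes with Jarid2 upon EPOP knock-down and the bivalent class lie at 97.0% or above upon EPOP knock-down, and every class median of width lies nearer to 0 upon EPOP knock-down than in the siRNA control.

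Suz12 peaks were slightly wider upon EPOP knock-down than in the hairpin control. Over 6615 merged regions with a peak of both lists the median log2 ratio of summed peak width was 0.12 (quartiles −0.013 and 0.30), or 1.09-fold, and 72.9% of regions were wider. The same ratio of siRNA control over hairpin control was 0.39 (quartiles 0.20 and 0.62) over 5669 regions, and EPOP knock-down over siRNA control was −0.25. For comparison, the Suz12 list upon EloB knock-down had a ratio of 0.033 over the siRNA control and 0.44 over the hairpin control. What set the 2 controls apart was not tested. The EPOP knock-down shift of 0.12 is larger than that 0.033 and smaller than the gap between the controls. Its direction depends on which control is used, so no change in width upon EPOP knock-down is shown. At least 1.5-fold wider than in the hairpin control were 493 regions (7.45%), and at least 1.5-fold narrower were 94 (1.42%). Of siRNA control over hairpin control, 1601 regions (28.2%) were at least 1.5-fold wider and 27 (0.476%) at least 1.5-fold narrower. Across regions, log2 widths correlated with Pearson's r of 0.93 between EPOP knock-down and hairpin control and 0.90 between siRNA control and hairpin control. Both correlations are across regions of the same genome and share the hairpin control list.

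The shift was similar on both flanks. In 6192 pairs of peaks that matched 1 to 1, the knock-down peak reached a median of 65 bp further out on the left and 64 bp on the right than the hairpin control peak. The siRNA control peak reached 237 bp and 234 bp further out than the hairpin control peak over 5081 pairs.

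**Figure D3:**
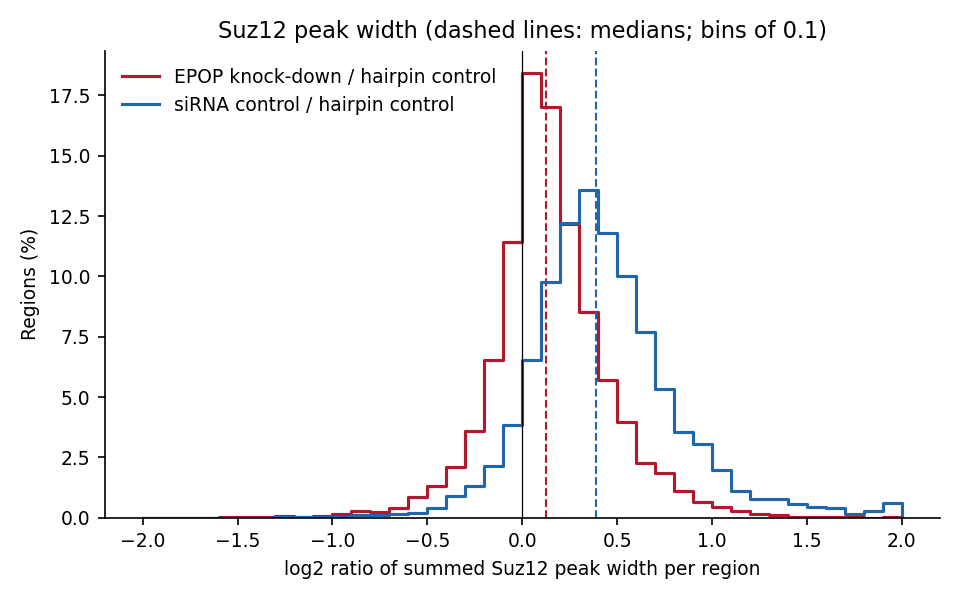
Distribution over regions (y axis, percent of regions, bins of 0.1) of the log2 ratio of summed Suz12 peak width (x axis) for EPOP knock-down over hairpin control (red, 6615 regions) and siRNA control over hairpin control (blue, 5669 regions). Dashed lines are the medians, 0.12 and 0.39, and values beyond 2 in either direction are put in the outermost bins.

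The width ratio was alike in EPOP-bound and EPOP-free regions as a whole, but not among regions of like width. For EPOP knock-down over hairpin control the median was 0.12 in 5223 EPOP-bound and 0.11 in 353 EPOP-free regions. For siRNA control over hairpin control it was 0.40 in EPOP-bound and 0.36 in EPOP-free regions. Averaged with equal weight over the quartiles of hairpin control width with enough EPOP-free regions, the EPOP-bound ratio was higher by 0.22, EPOP knock-down over hairpin control. In quartile 1, the narrowest, which held 263 of the EPOP-free regions, the medians were 0.29 in EPOP-bound and 0.22 in EPOP-free regions. In quartile 2, with 69 EPOP-free regions, they were 0.15 and −0.10. In quartile 3, with 18 EPOP-free regions, they were 0.12 and −0.21, so the average leans on the quartiles with few EPOP-free regions. A gap in the same direction lay between the controls. For siRNA control over hairpin control, quartile 1 had medians of 0.58 in EPOP-bound and 0.43 in 114 EPOP-free regions, and quartile 2 had 0.40 and 0.081, the second over 22 regions. The gap is therefore not particular to the knock-down. Without quartiles, the difference against the siRNA control was −0.052.

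Other classes were also set beside the controls. At least 1.5-fold wider than in the hairpin control were 5.97% of EPOP-bound and 14.7% of EPOP-free regions upon EPOP knock-down, and 28.2% and 33.6% in the siRNA control. Regions with EloB in both control lists, with a hairpin control median of 3384 bp, had a ratio of 0.10 for EPOP knock-down over hairpin control and 0.40 for siRNA control over hairpin control. At least 1.5-fold wider were 11 of 779 (1.41%) upon EPOP knock-down and 167 of 747 (22.4%) in the siRNA control. Regions with a Jarid2 peak called only upon EPOP knock-down had a ratio of 0.13 upon EPOP knock-down and 0.40 in the siRNA control, both over the hairpin control. Those with Jarid2 in both conditions had 0.11 upon EPOP knock-down and 0.40 in the siRNA control, and those with Jarid2 in neither 0.14 upon EPOP knock-down and 0.37 in the siRNA control. The width ratio in quartile 1 of regions by hairpin control score, the lowest, came to 0.22 upon EPOP knock-down and 0.46 in the siRNA control. In quartile 4 it was 0.10 upon EPOP knock-down and 0.39 in the siRNA control.

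Regions with a peak in all 3 lists numbered 5483, and each was set against both controls. The knock-down width lay between the control widths in 3394 regions (61.9%), above both in 834 (15.2%) and below both in 1255 (22.9%). At least 1.5-fold wider than both were 25 regions (0.456%), and at least 1.5-fold narrower than both were 59 (1.08%). EPOP-bound regions made up 15 of the 25 and 41 of the 59, which is 0.315% and 0.862% of the 4756 EPOP-bound regions. None of the 745 regions with EloB in both control lists was among either.

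Few strong regions departed from both controls. Of 3577 regions at or above the median hairpin control score, 2 were at least 1.5-fold wider and 11 at least 1.5-fold narrower than both controls. Regions were ranked by the smaller of their changes against the controls. The first of the wider ones lay on chromosome 2, 136503477 to 136505943 (mm9). It had 2467 bp upon EPOP knock-down, 1158 bp in the hairpin control and 1471 bp in the siRNA control, and it held a Jarid2 peak upon EPOP knock-down and not without. The next, chromosome 2, 69659673 to 69662365, had 2693 bp upon EPOP knock-down, 1789 bp in the hairpin control and 1582 bp in the siRNA control. The first of the narrower ones lay on chromosome 1, 137000025 to 137002936. It had 1118 bp upon EPOP knock-down, 2462 bp in the hairpin control and 2737 bp in the siRNA control, and like the wider regions it carried EPOP in both EPOP control lists. Chromosome 2, 33429851 to 33441765, had 2216 bp upon EPOP knock-down, 4434 bp in the hairpin control and 11915 bp in the siRNA control.

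The 5 kept regions with the highest hairpin control scores varied in width. The first lay on chromosome 2, 115885793 to 115903077, with 12411 bp in 6 peaks upon EPOP knock-down, 13601 bp in 7 peaks in the hairpin control and 17285 bp in 1 peak in the siRNA control. Chromosome 17, 67701617 to 67705217, held 3385 bp upon EPOP knock-down, 2881 bp in the hairpin control and 3601 bp in the siRNA control. Chromosome 13, 113782396 to 113785680, held 2998 bp upon EPOP knock-down, 1846 bp in the hairpin control and 3285 bp in the siRNA control, more than 1.5-fold wider upon EPOP knock-down than in the hairpin control. Chromosome 2, 93794313 to 93798889, held 2987 bp upon EPOP knock-down, 3312 bp in the hairpin control and 4577 bp in the siRNA control. Chromosome 13, 58906892 to 58911552, held 3739 bp upon EPOP knock-down, 3559 bp in the hairpin control and 4661 bp in the siRNA control. All 5 carried EPOP in both EPOP control lists, and Jarid2 and H3K27me3 in both conditions. Upon knock-down the first 3 had no EPOP peak and the other 2 had one in 1 of the 2 EPOP lists.

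Broad Suz12 domains were also kept. The siRNA control held 164 peaks of at least 10000 bp, of which 164 carried EPOP, 162 Jarid2 and 128 EloB. Of all 6834 siRNA control peaks, 5044 carried EPOP, 2177 Jarid2 without knock-down and 747 EloB. Wider peaks overlap other lists more easily. The set of broad domains was chosen after the values were seen. Knock-down peaks covered a median of 83.5% of a domain (quartiles 75.1 and 89.7) and hairpin control peaks 77.6% (69.0 and 84.4). No domain lacked a peak in either list. Knock-down peaks covered more than hairpin control peaks in 140 domains and less in 24. The domains were split into 427 peaks upon EPOP knock-down and 497 in the hairpin control. The widest, on chromosome 11, 96129226 to 96216908, was covered to 78.0% by 9 peaks upon EPOP knock-down and to 76.6% by 14 peaks in the hairpin control. The next, on chromosome 2, 74492322 to 74554534, was covered to 89.1% by 10 peaks upon EPOP knock-down and to 77.9% by 11 in the hairpin control. A domain on chromosome 12, 9576626 to 9592106, had 83.4% covered upon EPOP knock-down and 52.3% in the hairpin control. In the other direction, the domain on chromosome 2, 33429851 to 33441765, had 18.6% covered upon EPOP knock-down and 37.2% in the hairpin control. The domain on chromosome 5, 120109651 to 120126112, had 7.40% covered upon EPOP knock-down and 14.6% in the hairpin control.

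**Figure D4:**
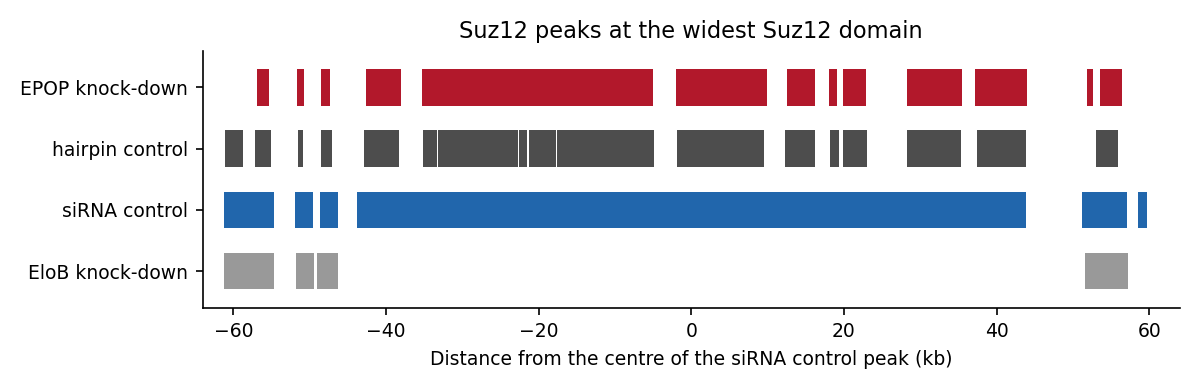
Suz12 peaks (filled blocks) at the widest Suz12 domain, by distance from the centre of the siRNA control peak (x axis, kb), in the lists upon EPOP knock-down, of the hairpin control, of the siRNA control and, for comparison, upon EloB knock-down. EPOP knock-down peaks covered 78.0% and hairpin control peaks 76.6% of the siRNA control peak, with gaps at like places. The EloB knock-down list held no peak inside it but held peaks on both sides. That list covered the next widest domain to 99.9%, and 142 of the 164 broad domains held 1 of its peaks. Why it has no peak here was not tested.

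Missing regions were few and weak. Of 5659 merged regions with a peak of both controls, 176 had no knock-down peak (3.11%). The share was 1.10% (53 of 4809) for EPOP-bound, 12.5% (89 of 713) for regions with EPOP in 1 replicate and 24.8% (34 of 137) for EPOP-free regions. Missing regions with Jarid2 numbered 2 of 2169 (0.0922%) and those with EloB 1 of 746. The mitochondrial region was that EloB region and 1 of the 2 with Jarid2. All hairpin control peaks with no knock-down peak had a median score of 63.5 and width of 728 bp, against 321 and 1508 bp for those found. Of the missing peaks, 229 had an siRNA control peak, with a median hairpin control score of 74.6 and width of 822 bp.

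The highest-scoring missing peak was the mitochondrial one, with a score of 409. The next, on chromosome 11, 21906764 to 21907875, had a score of 212 and lay 900 bp from a knock-down peak, inside a 16328 bp siRNA control peak. Chromosome 3, 58294361 to 58295061, and chromosome 1, 72385951 to 72386864, with scores of 200.2 and 178, held no peak in any other of the 20 lists. Chromosome 19, 4839304 to 4840617, with a score of 175, also held an siRNA control peak and H3K27me3 without knock-down. Among siRNA control peaks with a score of at least 1000, 4 had no knock-down peak, of which 1 was mitochondrial. The other 3, on chromosomes 14, 17 and 5, were absent from the hairpin control as well and present upon EloB knock-down.

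New Suz12 peaks upon EPOP knock-down scored low, and most lay on H3K4me3 without H3K27me3. Of the 8491 knock-down peaks, 1745 had no hairpin control peak (20.6%) and 1175 had no peak of either control (13.8%), while 1145 siRNA control peaks had no hairpin control peak (16.8%). Only 3 of the 1175 scored at or above the knock-down median, and the highest score was 298. H3K4me3 without H3K27me3 marked 81.2% (78.9 to 83.3) of them, Jarid2 was present at 10 (0.851%) upon EPOP knock-down, and EPOP in both control lists at 6.89% (5.58 to 8.49). EPOP in replicate 1 was found at 49.6% and in replicate 2 at 8.68%. Among the 6746 knock-down peaks on a hairpin control peak, H3K4me3 without H3K27me3 marked 22.5% and Jarid2 upon EPOP knock-down 52.0%. Of these 6746, EPOP in both control lists was found at 78.8%, in replicate 1 at 92.9% and in replicate 2 at 80.6%.

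Regions found in 1 control alone were fewer and carried other shares of the marks. Of the 9431 merged regions, 12.5% were found upon EPOP knock-down alone, 7.80% in the hairpin control alone and 7.81% in the siRNA control alone. The lists also differed in length, at 8491, 7972 and 6834 peaks in that order. The 736 hairpin control regions in neither other list carried H3K4me3 without H3K27me3 in 50.1% (46.5 to 53.7) and EPOP in both lists in 5.71%. The 737 siRNA control regions in neither other list carried H3K4me3 without H3K27me3 in 33.0% (29.7 to 36.4) and H3K27me3 in 41.7% (38.1 to 45.2). Regions shared by the EPOP knock-down and the hairpin control alone numbered 725, with H3K4me3 without H3K27me3 in 73.0% (69.6 to 76.1). Of the 1175 new peaks, 158 (13.4%, 11.6 to 15.5) also held a Suz12 peak upon EloB knock-down.

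The new peaks with the highest scores were alike. Chromosome 2, 19579336 to 19580538, was 1203 bp wide with a score of 298. Chromosome 8, 47702718 to 47703965, was 1248 bp wide with a score of 295, and chromosome 1, 52288766 to 52290757, was 1992 bp wide with a score of 277. They lay 204346, 120234 and 111645 bp from the nearest hairpin control peak. Each carried H3K4me3 in both conditions and lacked H3K27me3, Jarid2 and EloB in both, with EPOP in at least 1 EPOP control list. The 2 other named ones, on chromosome 5, 69947821 to 69949055, and chromosome 3, 14578277 to 14579554, had the same marks.

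**Figure D5:**
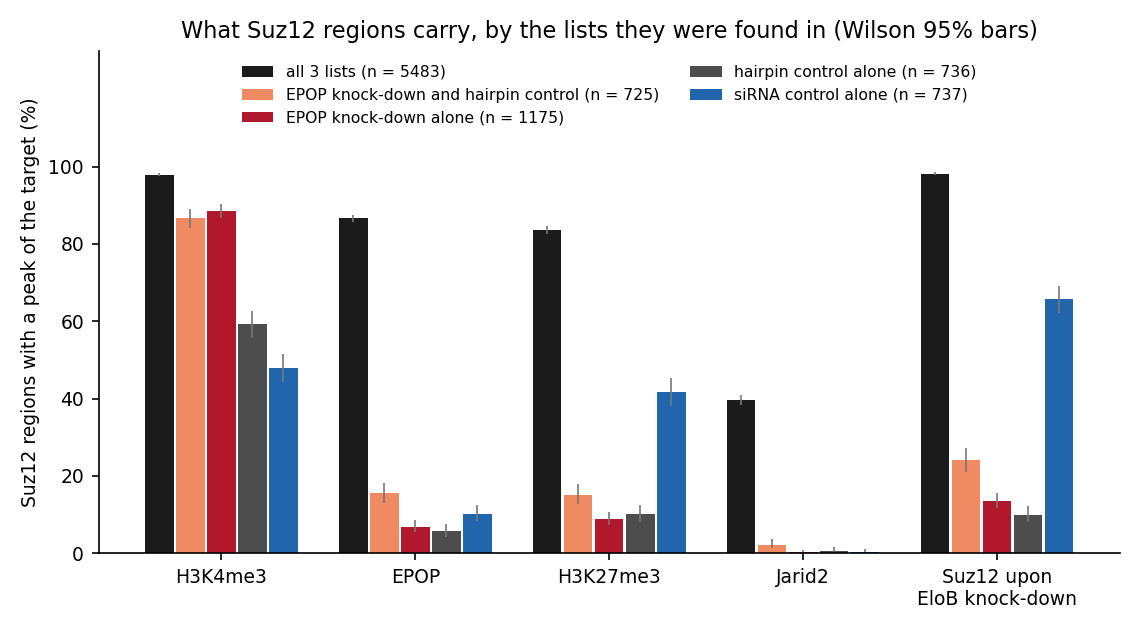
Share of Suz12 regions (y axis, percent, with Wilson 95% intervals) that carried each target without EPOP knock-down, or Suz12 upon EloB knock-down (x axis), by the lists in which the region was found (colours, numbers of regions in the legend). H3K4me3 and EPOP here mean a peak in both of their control lists. Regions found upon EPOP knock-down alone carried H3K4me3 in 88.6% and H3K27me3 in 8.85%, and those of all 3 lists 97.9% and 83.7%.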

How the data were processed

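Peak lists of 20 ChIP samples in E14Tg2A cells were used, 1 list per sample. The other 10 samples (9 RNA, 1 IgG) were not used here. Per the submitters' processing notes, which give no roles, the tools were Bowtie, TopHat and Cufflinks and the build mm9. Peak names start with MACS in the deposited lists. The authors deposited a score per peak, never under 50 and not defined in the sources used here. It ranked peaks within a list. The shares at or above 3100 were set side by side across lists. The higher-scoring part used the hairpin control median score as the cut for the knock-down list too. Equal scores were ordered by width in the equal-length alternative and by position in quartiles and deciles.

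Groups came from sample titles and control methods from file headers. Peaks matched when they overlapped by at least 1 bp. Width ratios used summed peak width per merged region of the lists compared. Regions and calls were described by counts, medians and quartiles, without tests. No replicate pairs the knock-down. Regions named were the 5 highest-scoring missing, new and kept ones and the 5 most widened and narrowed at or above the median hairpin control score, of which some are printed. Members, classes and rules were chosen with earlier results of these data known. The broad domains, the strong siRNA control peaks and the groups by score were added later. Alternatives were other overlaps, parts of the lists, controls and EPOP replicates. No mm9 genome or annotation was used here, so no gene is assigned, no sequence is printed and the planned gene lists at promoters were not run. Coordinates are mm9, counted from 1.

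Python 3.11.15, NumPy 2.4.6, SciPy 1.17.1, pandas 2.3.3, Matplotlib 3.10.9 and bedtools 2.31.1 were used. Overlaps matched bedtools in all 16 ordered pairs of Suz12 lists. On a simulated knock-down list from 7970 hairpin control peaks, the recovered kept share lay within 1.64 percentage points of the simulated one, and the recovered log2 width ratio within 0.013.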

Additional observations from a re-analysis of the deposited data

How the results depend on the processing

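Of 48 alternative values over 6 results, the ones that moved or turned are these. With the siRNA control in place of the hairpin control, leaving out each control list in turn, the ratio of peak number ran from 1.07 to 1.24, the kept share from 86.6% to 87.9%, and the share of knock-down peaks with no control peak from 20.6% to 22.4%. Over the same pair the median log2 width ratio ran from −0.25 to 0.12, the EPOP-bound minus EPOP-free width difference from −0.052 to 0.013 and that of the kept share from 57.0 to 67.5 percentage points. The kept share was 89.0% within 1000 bp, 97.2% in the higher-scoring part (4450 knock-down and 3986 hairpin control peaks), 89.8% at equal length (6834 peaks) and 96.9% for regions of both controls. The share with no hairpin control peak was 18.2% within 1000 bp, 15.2% in the higher-scoring part, 13.5% at equal length and 13.8% against both controls. With all hairpin control peaks and the higher-scoring knock-down peaks alone, an alternative chosen after seeing the data, it was 0.472%. The EPOP-bound minus EPOP-free width difference was 0.024 with EPOP replicate 1 alone and −0.023 with replicate 2 alone, and 0.22 and 0.17 averaged over quartiles of hairpin control width and score. For the kept share it was 46.8 and 35.6 points with EPOP replicate 1 and 2 alone, and 33.3 and 26.8 points over those quartiles. All averages over quartiles gave each quartile equal weight and left out any with too few EPOP-free members. The cause of these shifts was not tested. No paired analysis was possible because the knock-down has 1 list, so the groups share fewer than 2 replicate numbers. The gene lists at promoters were not run. Depth is unknown, so a weak peak missing from a list is not shown to be absent.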

Other observations

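The 2 Suz12 lists named for hairpins shared regions that the siRNA lists lacked, a split examined after the data were seen. Regions with a peak upon EPOP knock-down and in the hairpin control, but neither in the siRNA control nor upon EloB knock-down, numbered 551. They were part of the 9431 merged regions of the 3 lists. The 551 had a median hairpin control score of 83.6 and a median width of 1116 bp, with H3K4me3 at 84.2% and H3K27me3 at 12.3%. Of all 7972 hairpin control peaks, 7172 carried H3K4me3 in both control lists and 5499 H3K27me3 without knock-down. Of the 551, 65 held no peak in any other of the 20 lists. Among the 28 of the 551 with a hairpin control score of at least 200 were 14 of these 65. The highest-scoring lay on chromosome 10, 79201573 to 79203321, with a score of 414 upon EPOP knock-down and 673 in the hairpin control. Chromosome 7, 134754224 to 134756048, had a score of 298 upon EPOP knock-down and 576 in the hairpin control. Chromosome 4, 140379275 to 140380218, had a score of 216 upon EPOP knock-down and 412 in the hairpin control. The reverse set, siRNA control peaks found upon EloB knock-down and in neither hairpin list, numbered 484.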
